A study of Mus musculus with 43 samples.

Results

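The 10 genes described here are the transcription factors and a cell cycle regulator that mark cortical intermediate progenitors and the neurons that have just left them: Eomes, Insm1, Btg2, Neurog1, Neurog2, Neurod1, Neurod2, Neurod4, Neurod6 and Sox11. They were found by gene name in the table of raw counts, where each had a single row, so the set is 10 of 56980 genes. Their expression was followed in GFP+ layer 2/3 (L2/3) neurons of the somatosensory cortex of C57BL6JRccHsd mice. The study asked how L2/3F (female) and L2/3M (male) neurons differ as they mature and what the transcription factors CUX1 and CUX2 contribute, and its 43 libraries fall into 13 groups. At E19, females and males were each sampled with 4 libraries for wild type (WT), for Cux1 KO and for Cux2 KO. At P4 there were 3 libraries for each sex from WT and as many from Cux2 KO, and 2 of Cux1 KO males. At P7 there were 2 libraries of WT females and 3 of WT males.

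All cells were labelled by in utero electroporation and sorted by FACS from the dissected fluorescent cortex. WT, Cux2 KO and E19 Cux1 KO neurons carried GFP driven by the ubiquitous CAG promoter. Cux2 KO and E19 Cux1 KO were germline mutants, the latter with an allele that lacks the C-terminal part of CUX1. The P4 Cux1 KO males instead carried a floxed and a deleted allele and received CRE together with a CRE-dependent GFP, so that the floxed exon was deleted in the electroporated cells. The 2 sets of Cux1 KO libraries therefore differ in allele and in exposure to CRE as well as in age, and none of the WT libraries is labelled as having received CRE. The labels number the libraries of a group as replicates and do not say whether each came from a separate animal, so p-values measure the spread between these libraries.

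In the developing cortex, radial glia give rise to intermediate progenitors, which divide a few times and produce most pyramidal neurons. Neurog1 and Neurog2 are proneural bHLH factors that start this programme in progenitors. Eomes (TBR2) is the T-box factor that defines intermediate progenitors, Insm1 is a zinc finger repressor that promotes their formation, and Btg2 (TIS21) is an antiproliferative gene switched on in progenitors that will divide to give neurons. Neurod1 acts at the passage from progenitor to neuron, Neurod4 is another bHLH factor of the same phase, and Neurod2 and Neurod6 are bHLH factors of young pyramidal neurons. Sox11 is a SoxC factor that drives neuronal genes in newborn neurons. In the cortex most of these genes are high while neurons are being born and are switched off again as the neurons mature.

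All members are protein-coding genes, and their positions were taken from GENCODE vM39 on GRCm39. Eomes (ENSMUSG00000032446) lies at chr9:118307280-118315200, Insm1 (ENSMUSG00000068154) at chr2:146063841-146066940 and Btg2 (ENSMUSG00000020423) at chr1:134002908-134015033. Neurog1 (ENSMUSG00000048904) lies at chr13:56398291-56399976 and Neurog2 (ENSMUSG00000027967) at chr3:127426448-127429280. Neurod1 (ENSMUSG00000034701) lies at chr2:79282865-79287294, Neurod2 (ENSMUSG00000038255) at chr11:98216241-98220480, Neurod4 (ENSMUSG00000048015) at chr10:130104021-130116132 and Neurod6 (ENSMUSG00000037984) at chr6:55654807-55658326. Sox11 (ENSMUSG00000063632) lies at chr12:27384263-27392573 and, like Insm1 and Neurog1, has a single exon. Long non-coding genes overlap Eomes, Btg2, Neurod1, Neurod2 and Neurod6 on the opposite strand, and Cerkl overlaps Neurod1 on the same strand. Whether reads were counted by strand is not given in the sources used here, so the counts of these 5 members may hold reads of the overlapping genes.

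bHLH factors bind E-boxes, and NEUROD and NEUROG proteins are known to prefer the E-box CAGATG. The 250 bases before the start of each member's canonical transcript were searched on both strands, so that CAGATG also stands for its reverse complement. The core CANNTG, which holds both others, and the E-box CAGCTG were searched for as well. CAGATG occurred once each upstream of Neurod1, Neurod2 and Neurod6 and in none of the other members. Over 21770 protein-coding genes, 13% of the windows hold CAGATG, 11.9% hold CAGCTG (among the members only Neurog2) and 64.8% hold any CANNTG. The matches are a description of letters and not of binding. The windows of Neurod2 and Neurod6, the bHLH members that were still the most abundant ones in the P4 Cux1 KO neurons described further on, are shown on the minus strand of GRCm39, 5′ to 3′ and ending at the base before the start, with CAGATG in capitals. That of Neurod2 is chr11:98220481-98220730 and that of Neurod6 is chr6:55658327-55658576.
Neurod2: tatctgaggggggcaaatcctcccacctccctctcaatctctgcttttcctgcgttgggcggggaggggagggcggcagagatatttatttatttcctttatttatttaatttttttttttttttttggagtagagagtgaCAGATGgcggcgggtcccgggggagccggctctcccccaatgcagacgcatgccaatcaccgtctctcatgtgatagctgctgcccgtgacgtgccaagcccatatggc
Neurod6: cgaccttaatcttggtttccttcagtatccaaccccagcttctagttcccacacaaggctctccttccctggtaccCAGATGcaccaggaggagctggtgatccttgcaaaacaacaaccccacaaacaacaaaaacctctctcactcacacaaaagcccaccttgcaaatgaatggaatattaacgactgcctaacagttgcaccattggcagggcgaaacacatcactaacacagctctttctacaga

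Library totals were 13321095 to 20715732 counts at E19, 19499125 to 60559585 at P4 and 15312029 to 27633827 at P7. Levels are given as CPM, the count relative to the TMM-scaled library total, over the 43 libraries. The targeted genes do not check the labels, because each is counted over the whole gene and not over the deleted part. Cux1 was at 291 to 367 CPM in Cux1 KO and at 311 to 491 CPM in WT neurons at E19, and Cux2 was at 268 to 410.2 CPM in Cux2 KO and at 330.3 to 507 CPM in WT. The 2 Cux1 KO libraries of P4 stood apart: 17049 and 19115 genes had a count there, against 20844 to 23736 in the other P4 libraries. The summed level of 10 upper-layer markers was 3125 to 4823 CPM at E19, 758 to 1149 CPM at P4 and 565.5 to 756 CPM at P7, whereas that of 8 astrocyte markers was 837 to 1559, 3035 to 4917 and 6232 to 9114 CPM. The E19 and later libraries were sequenced in separate rounds, so E19 and the round cannot be told apart. In these bulk samples fewer cells of a type and less RNA per cell cannot be told apart either.

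Per kilobase of exon, Neurod6 and Sox11 were the highest members in WT neurons at E19, at 249.7 ± 36.7 and 221 ± 16.5 CPM per kb (SD, n = 8), and their difference was within the SD of Neurod6. Neurod2 followed at 172 ± 25.1, Insm1 at 89.4 ± 8.04 and Eomes at 45.6 ± 9.24 CPM per kb. Neurod1 at 29.6 ± 5.51 and Neurog2 at 25.8 ± 3.59 CPM per kb lay within their spread of each other. Btg2 came next at 7.96 ± 0.703 CPM per kb, far above Neurod4 at 0.566 ± 0.303 and Neurog1 at 0.126 ± 0.140. At P4 (n = 6) Sox11 was at 222 ± 88.0 CPM per kb and Btg2 had become the next by its mean, at 30.1 ± 3.36. Neurod6 followed at 19 ± 14.5, a difference within its SD, then Insm1 at 9.77 ± 5.90 and Neurod2 at 5.64 ± 1.53 CPM per kb, neighbours that lay within their spread of each other, and the remaining members were at 3.09 CPM per kb or lower. At P7 (n = 5) Sox11 at 125 ± 57.1 and Btg2 at 35.0 ± 7.26 CPM per kb were again the highest, and every other member was at 3.20 CPM per kb or lower.

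**Figure D1:**
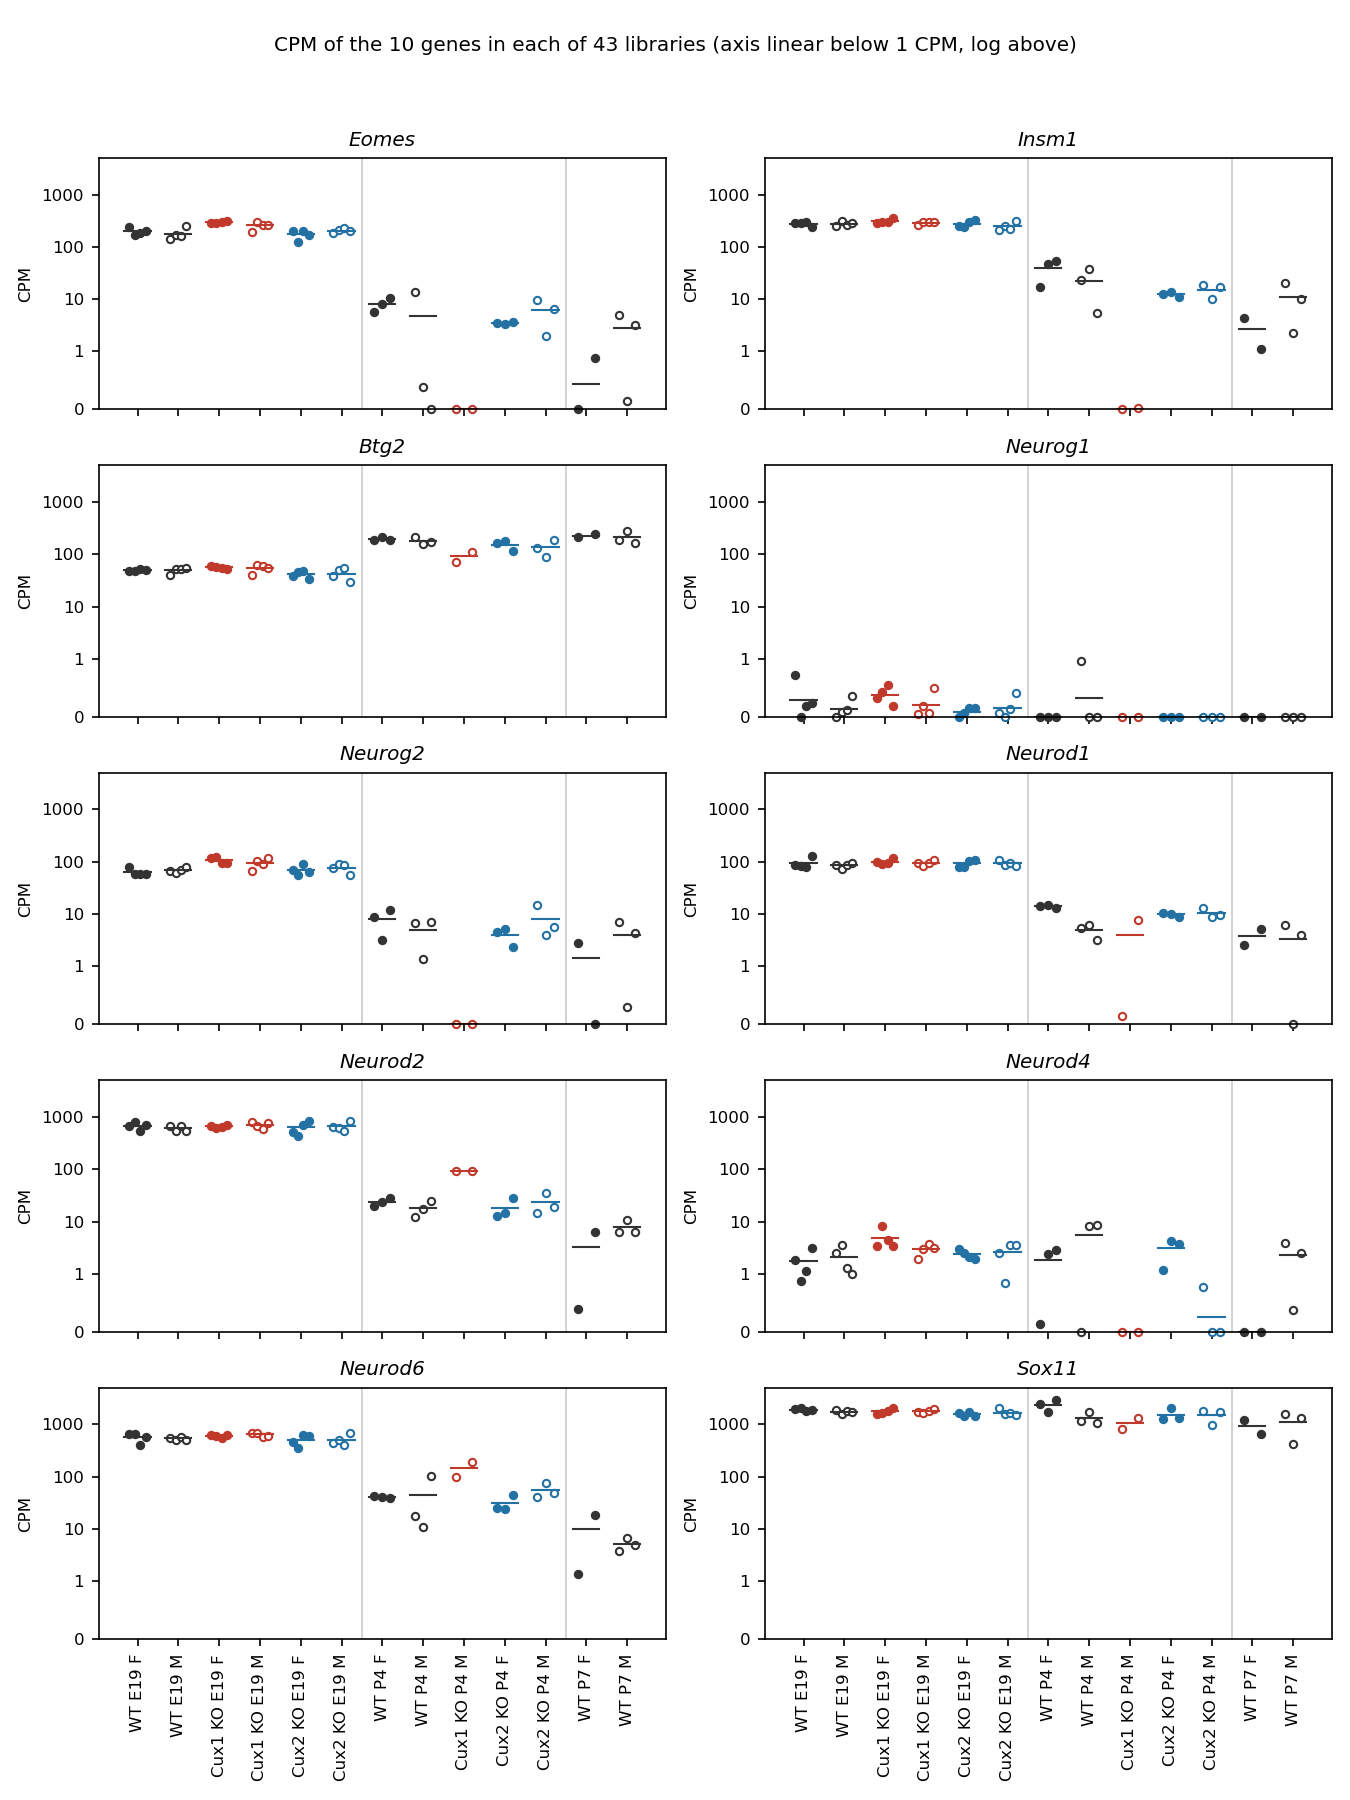
Level of each member in each of the 43 libraries, in TMM-scaled CPM on a symmetric log axis that is linear below 1 CPM. Points are libraries (filled, females; open, males), bars are group means, and colours mark WT (black), Cux1 KO (red) and Cux2 KO (blue). Eomes, Insm1, Neurog2, Neurod1, Neurod2 and Neurod6 sit lower at P4 and P7 than at E19, Btg2 sits higher, and Sox11 stays between 429 and 2959.9 CPM.

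To ask how the neurogenic genes changed between late gestation and the first postnatal days, WT P4 libraries were compared with WT E19 libraries, with sex as a covariate. Here and below the test was edgeR's quasi-likelihood test with Benjamini-Hochberg adjustment over all genes tested, and a gene was called at an adjusted p under 0.05 and an absolute log2FC over 1 (over 0.5 at E19). 9 of the 10 members passed the filter on low counts in each comparison, and Neurog1 passed in none. Between E19 and P4, 6 members fell (Eomes, Insm1, Neurog2, Neurod1, Neurod2 and Neurod6), Btg2 rose, and Neurod4 and Sox11 did not pass the test. The stages differed widely in all genes: 46.3% of 18585 genes were called, 23.7% lower and 22.6% higher.

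Eomes, the marker of intermediate progenitors, was at 139 to 248 CPM (median 178) in the 8 WT libraries of E19. At P4 it was at 5.75, 8.23 and 10.4 CPM in females and at 13.7, 0.390 and 0.0156 CPM in males, all far below the E19 range. Its log2FC was -4.93 ± 0.78 (SE; adjusted p = 4.72e-05). The P4 males were uneven: replicate 1 held 742 Eomes reads, replicate 3 a single read. Insm1 was at 235 to 306 CPM (median 286) at E19 and at 5.54 to 53.3 CPM (median 29.9) at P4, a log2FC of -3.25 ± 0.38 (adjusted p = 2.59e-06). Insm1 kept a higher share of its E19 level than Eomes in the means, 30.3 ± 18.3 of 277 ± 24.9 CPM against 6.41 ± 5.47 of 189 ± 38.4 CPM (SD), a contrast between genes that was not tested.

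Btg2 went the other way. It was at 40.9 to 55.9 CPM (median 50.9) at E19 and at 189.7, 212 and 185 CPM in females and 211, 157 and 176 CPM in males at P4. The groups did not overlap, and the log2FC was 1.91 ± 0.09 (adjusted p = 2.11e-10). Of its relatives in the BTG/TOB family, Btg1 (log2FC 1.77) and Btg3 (1.42) were also called higher.

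Neurog2, the main proneural gene of cortical progenitors, was at 57.6 to 80.3 CPM (median 63.8) at E19 and at 1.40 to 11.7 CPM (median 6.82) at P4, with a log2FC of -3.40 ± 0.37 (adjusted p = 1.1e-06). Neurog1, which acts with it earlier in corticogenesis, was close to absent in these neurons. It had 0 to 12 reads per library at E19 in all genotypes, and at P4 and P7 all reads, 52 of them, came from WT P4 male replicate 1, the library that also had the highest Eomes level of P4.

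Of the Neurod genes, Neurod2 fell most. It was at 533 to 797 CPM (median 672) in WT at E19 and at 20.1, 23.3 and 28.8 CPM in females and 12.4, 17.6 and 24.2 CPM in males at P4, a log2FC of -4.96 ± 0.18 (adjusted p = 2.5e-11). Neurod6 was at 407 to 655 CPM (median 569) at E19 and at 11.1 to 102 CPM (median 39.9) at P4, with a log2FC of -3.73 ± 0.41 (adjusted p = 1.3e-06). The 3 WT P4 females were close together in Neurod6 (38.7 to 42.9 CPM), whereas the males were at 17.8, 11.1 and 102 CPM. Neurod1 was at 74.1 to 128 CPM (median 87.3) at E19 and at 3.16 to 14.7 CPM (median 9.51) at P4, a log2FC of -3.43 ± 0.28 (adjusted p = 4.65e-08). In each of these genes every P4 library was below every E19 library. Over the set 7 members did not overlap between the stages, as was the case for 47.9% of all genes. Neurod4 was low and uneven, at 0.875 to 3.52 CPM at E19 and at 0 to 8.68 CPM at P4, and its log2FC of 0.76 ± 0.88 was within the spread (adjusted p = 0.46).

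Sox11 was the only abundant member without a called change. It was at 1573 to 2033 CPM at E19 and, at P4, at 2423, 1724 and 2959.9 CPM in females and 1162, 1721 and 1069.5 CPM in males. The log2FC was -0.06 ± 0.16 (adjusted p = 0.773). It was 0.30 in females alone, and 0.10 with library totals alone, which moved the median of all genes by as much (from 0.03 to 0.19). The males lay in the other direction, with a mean of 1764 CPM at E19 (n = 4) and 1317 CPM at P4 (n = 3), and overlapped. The Sox11 reads themselves changed little between P4 libraries of very different depth. In the 12 WT and Cux2 KO libraries of P4 Sox11 had 40777 to 69575 reads, while the totals ranged from 20919432 to 60559585, and the slope of log2 reads on log2 total was 0.18. The median slope was 0.65 over the 27 genes above 1000 CPM and 1.06 over the 2509 genes of 100 to 1000 CPM, and Neurod2 had a slope of 1.06. Members at lower levels also had low slopes there, 0.03 for Insm1, 0.24 for Neurod1, 0.43 for Neurog2 and -1.61 for Eomes, but with reads that ranged more widely (354 to 1784 for Insm1 and 202 to 571 for Neurod1). At E19 Sox11 had a slope of 1.56. The authors removed duplicated reads with a threshold of 50 reads per position, and its part in the postnatal Sox11 levels was not tested.

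**Figure D2:**
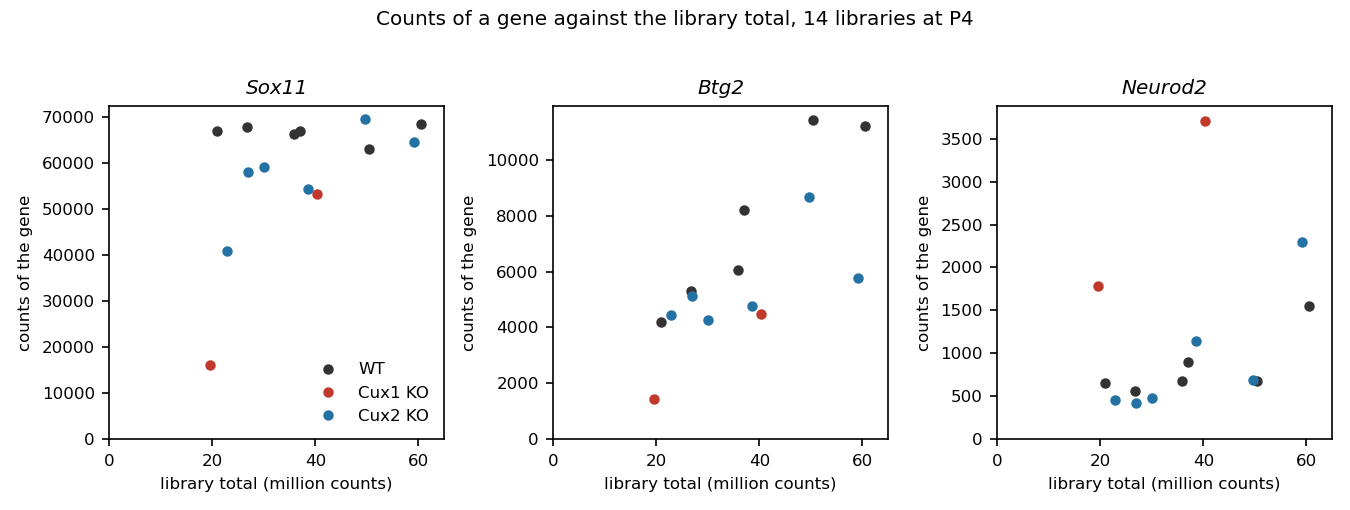
Reads of Sox11, Btg2 and Neurod2 against the library total in the 14 libraries of P4, on linear axes (black, WT; red, Cux1 KO; blue, Cux2 KO). Sox11 stays between 40777 and 69575 reads over the 12 WT and Cux2 KO libraries, whereas Btg2 and Neurod2 spread more widely (4188 to 11421 and 421 to 2301 reads).

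In Cux2 KO neurons, whose libraries are independent of the WT ones, the same 7 members passed the test between E19 and P4 and in the same directions (47.9% of 19102 genes were called, 24.6% lower and 23.3% higher). Eomes had a log2FC of -5.37 ± 0.31 (adjusted p = 6.27e-10) and Insm1 one of -4.27 ± 0.18 (adjusted p = 2.49e-11). The log2FC was -3.68 ± 0.33 for Neurog2, -3.21 ± 0.13 for Neurod1, -4.97 ± 0.27 for Neurod2 and -3.62 ± 0.25 for Neurod6. Btg2 rose by 1.77 ± 0.18 (adjusted p = 2.77e-07). Sox11 had a log2FC of -0.09 ± 0.15 (adjusted p = 0.592), and Neurod4 one of -1.23 ± 0.96 (adjusted p = 0.262). A test of whether the change differed between Cux2 KO and WT called no member (0.191% of genes). The smallest p was that of Insm1, whose change was lower by 1.04 in Cux2 KO (unadjusted p = 0.013, adjusted p = 0.465), and it was the only member with an unadjusted p under 0.05. DESeq2 also called none.

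**Figure D3:**
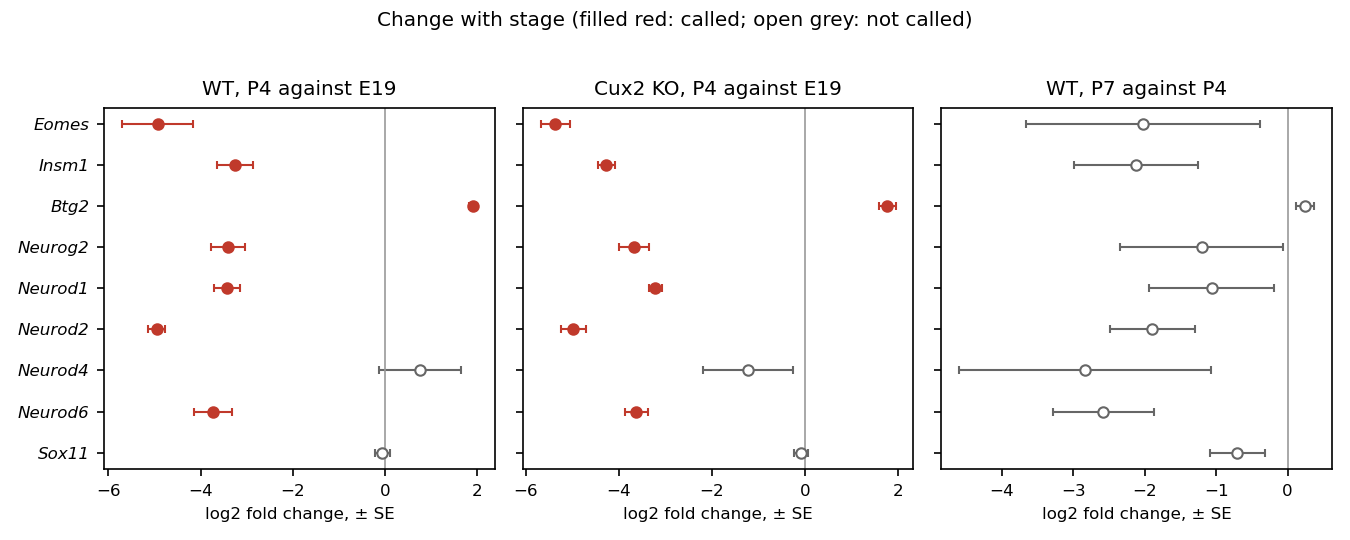
log2FC of the 9 members tested, ± SE, between E19 and P4 in WT and in Cux2 KO and between P4 and P7 in WT (filled red, called by edgeR; open grey, not called). The 6 members that fell lie between -3.21 and -5.37 in both genotypes, Btg2 lies at 1.91 and 1.77, and edgeR called no member between P4 and P7.

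Between P4 and P7, both from the second sequencing round, no member was called in WT neurons by edgeR (2.29% of 20936 genes were), and 3 had an unadjusted p under 0.05. DESeq2 called 3, among 1187 genes against 480 by edgeR. Neurod2 was at 0.388 and 6.20 CPM in P7 females and 6.26, 10.7 and 6.29 CPM in P7 males, all below the lowest P4 library at 12.4 CPM, with a log2FC of -1.89 ± 0.59 (edgeR adjusted p = 0.0847, DESeq2 adjusted p = 0.00553). It was the only member whose groups did not overlap (7.34% of all genes). Neurod6 was at 1.36 and 18.8 CPM in females and at 3.76, 6.79 and 4.89 CPM in males at P7, a log2FC of -2.57 ± 0.71 (edgeR adjusted p = 0.0572, DESeq2 adjusted p = 0.000887). Insm1 was at 1.11 to 19.9 CPM (median 4.27), a log2FC of -2.12 ± 0.87 (edgeR adjusted p = 0.179, DESeq2 adjusted p = 0.0201). Leaving out P7 female replicate 1 made Neurod2 a call (adjusted p = 0.0363), and leaving out P7 female replicate 2 made Neurod6 one (adjusted p = 0.0383).

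The other members gave no difference beyond their spread between P4 and P7. Eomes was at 0 to 5.05 CPM at P7 (log2FC -2.03, adjusted p = 0.538), Neurog2 at 0 to 7.00 CPM (-1.20, adjusted p = 0.616) and Neurod1 at 0 to 6.15 CPM (-1.06, adjusted p = 0.542). The P7 libraries were uneven: male replicate 1 was the highest of the 5 in Eomes, Insm1, Neurog2 and Neurod1, and Neurod1 had no read in male replicate 2. Btg2 was at 166 to 280.3 CPM at P7 and at 157 to 212 CPM at P4 (log2FC 0.24, adjusted p = 0.314). Sox11 was at 429 to 1552 CPM (log2FC -0.71, adjusted p = 0.322). Neurod4, low and uneven, was at 0 to 3.87 CPM at P7 and 0 to 8.68 CPM at P4. Its log2FC of -2.83 was the lowest of the members tested and was not called.

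Genes that work with the members moved as follows between E19 and P4 in WT. The median log2FC of all genes was 0.03, and 22.6% were called higher and 23.7% lower. Of 14 proneural targets and Notch ligands, 6 were called lower and none higher (median -0.90), led by Nhlh1 (-9.30), a bHLH gene of newborn neurons, Sstr2 (-3.45), a somatostatin receptor of migrating neurons, and Rcor2 (-3.44), a corepressor. Of 11 bHLH partners and inhibitors, 7 were called higher and 1 lower (median 1.84). The higher ones were led by Hes5 (3.86), a Notch effector that represses proneural genes, and by Id3 (3.22) and Id1 (3.04), which sequester the E-protein partners of proneural factors, and the lower one was Tcf3 (-1.34), which encodes such an E-protein. Of 9 relatives of the members that were tested, 3 fell, Bhlhe22 (-5.11), Tbr1 (-4.59) and Sox12 (-3.81), and 2 rose, the Btg genes named above.

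Of 9 radial glia genes, 5 were called lower, led by Fabp7 (-4.21), Hopx (-3.24) and Nes (-1.87), and 2 higher, Slc1a3 (1.71) and Ptprz1 (1.13), both also expressed by astrocytes or oligodendrocyte precursors. Of 14 cell cycle genes 8 were called higher and none lower, led by Ccnb1 (2.69), Ccnd1 (1.96) and Aurkb (1.83). Immature neuron genes fell in 7 of 10, led by Igfbpl1 (-3.91), Dcx (-2.30) and Crmp1 (-2.19), and upper-layer genes in 8 of 10, among them Mdga1 (-4.84) and Cux2 (-3.59), with Rorb (2.59) called higher. Of 12 genes of maturing pyramidal neurons 7 were called lower, led by Slc17a7 (-7.59), a vesicular glutamate transporter, Camk2b (-4.14) and Grin2b (-2.91), and Calb1 (2.37) higher. Many genes of other cell types rose at the same time: 5 of 8 astrocyte, 4 of 7 oligodendrocyte lineage and 5 of 6 endothelial and mural markers were called higher and none lower. Of 9 interneuron genes 2 were called higher and 2 lower, Lhx6 (-6.66) and Slc32a1 (-3.28), and of 8 microglia genes 2 were called higher and 1 lower, C1qa (-1.45). The part of these cell types in the change of the members was not tested. In Cux2 KO 8 of 14 proneural targets and Notch ligands were called lower, 7 of 11 bHLH partners and inhibitors higher and 8 of 14 cell cycle genes higher, where 24.6% of all genes were called lower and 23.3% higher. Between P4 and P7 in WT, Rnd2 (1.16) and Id3 (1.08) were called higher, and Sstr2 (-3.51), Tbr1 (-2.70), Bub1 (-1.26), Cenpf (-1.06) and Mki67 (-1.03) lower in these lists.

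Loss of CUX1 was examined at E19 in each sex. Eomes and Neurog2 were higher on average in Cux1 KO than in WT neurons in both sexes, but within a sex no member was called by edgeR. The WT libraries are the same as in the stage and Cux2 comparisons. In females Eomes was at 282, 283, 298 and 308 CPM in Cux1 KO and at 241, 171, 185 and 202 CPM in WT. All KO libraries were above all WT libraries, and the log2FC was 0.55 ± 0.10 (adjusted p = 0.0864). Neurog2 was at 119, 125, 92.9 and 94.2 CPM in Cux1 KO females and at 80.3, 57.6, 58.6 and 57.8 CPM in WT females, again without overlap, with a log2FC of 0.76 ± 0.13 (adjusted p = 0.0864). Neurod4 was at 3.36, 8.20, 4.39 and 3.38 CPM against 1.84, 0.875, 1.14 and 3.13 CPM (log2FC 1.46 ± 0.41, adjusted p = 0.429). Btg2 was at 53.0 to 60.2 CPM against 47.8 to 51.7 CPM (log2FC 0.18 ± 0.09, adjusted p = 0.735). In this comparison 0.0576% of genes were called, the groups did not overlap in 4 members (3.37% of genes) and 3 members had an unadjusted p under 0.05. DESeq2 called 1 member, Neurog2 (adjusted p = 5.5e-05), among 29 genes. Eomes missed only the fold threshold there, with a log2FC shrunk toward 0 by DESeq2 (0.47, adjusted p = 0.000211). Without WT female replicate 1, the highest WT female in Eomes and Neurog2, edgeR called 13 genes, both of these among them.

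In males Eomes was at 191, 302, 265 and 267 CPM in Cux1 KO and at 139, 168, 162 and 248 CPM in WT, and Neurog2 at 66.1, 102, 91.3 and 118 CPM against 66.8, 60.8, 68.3 and 78.7 CPM. Replicate 1 of the KO lay within the WT range in both genes and the other KO libraries above it. The log2FC was 0.50 ± 0.17 for Eomes (adjusted p = 0.334) and 0.44 ± 0.15 for Neurog2 (adjusted p = 0.33). Neurod6 had a log2FC of 0.24 ± 0.08 (adjusted p = 0.31). No member was called (0.0979% of genes were), 3 had an unadjusted p under 0.05, and DESeq2 called none. A test of whether the KO effect differed between the sexes called no member and no gene, with no member at an unadjusted p under 0.05 and none called by DESeq2. The difference was -0.05 ± 0.21 for Eomes and -0.32 ± 0.22 for Neurog2.

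When both sexes were fitted together with sex as a covariate, an analysis given as a result of its own after the values were seen, Eomes and Neurog2 were called higher in Cux1 KO. This was 2 of 9 members, where 0.243% of 17714 genes were called and 0.135% were called higher. Over the alternatives the 43 genes called became 19 (without Cux1 KO male replicate 2) to 134 (by DESeq2). Eomes was at 274 ± 37.3 CPM in Cux1 KO and 189 ± 38.4 CPM in WT (SD, n = 8 each), a log2FC of 0.52 ± 0.10 (adjusted p = 0.0322). Neurog2 was at 101 ± 19.4 and 66.1 ± 9.19 CPM, a log2FC of 0.60 ± 0.11 (adjusted p = 0.024). For both genes the groups overlapped, and each call rests on single libraries. With each of the 16 libraries left out in turn the number of members called was 0 to 2: it was 0 without Cux1 KO female replicate 1, Cux1 KO male replicate 2 or WT female replicate 2, and 1 in 8 further cases. The log2FC of Eomes was then 0.48 to 0.62 (adjusted p 0.00183 to 0.0824) and that of Neurog2 0.55 to 0.67 (adjusted p 0.00128 to 0.059).

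The other members had no call. Insm1 had a log2FC of 0.10 ± 0.06 (adjusted p = 0.562), Btg2 of 0.14 ± 0.08 (adjusted p = 0.519), Neurod1 of 0.11 ± 0.09 (adjusted p = 0.669) and Neurod2 of 0.08 ± 0.08 (adjusted p = 0.754). Neurod6 had a log2FC of 0.15 ± 0.08 (adjusted p = 0.452) and Sox11 of -0.05 ± 0.06 (adjusted p = 0.787). Neurod4, low at this stage, had a log2FC of 0.98 ± 0.32 (adjusted p = 0.183). The summed level of 9 radial glia genes was 2860.0 to 3983 CPM in Cux1 KO and 2837 to 4000 CPM in WT, that of 14 cell cycle genes 1159 to 2132 and 1175 to 2230 CPM, and that of 14 proneural targets and Notch ligands 1922 to 2171 and 1827 to 2118 CPM. No gene of these 3 lists was called. In males alone the proneural targets and Notch ligands were at 1922 to 2122 CPM in Cux1 KO and 1827 to 1879 CPM in WT, without overlap. The immature neuron list was lower in Cux1 KO males, at 10832 to 11796 against 12118 to 12906 CPM. The oligodendrocyte lineage (381 to 579 against 594 to 730 CPM) and microglia lists (39.7 to 57.1 against 58.9 to 76.3 CPM) were also lower. In females all of these lists overlapped. Their part in the levels of Eomes and Neurog2 was not tested.

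**Figure D4:**
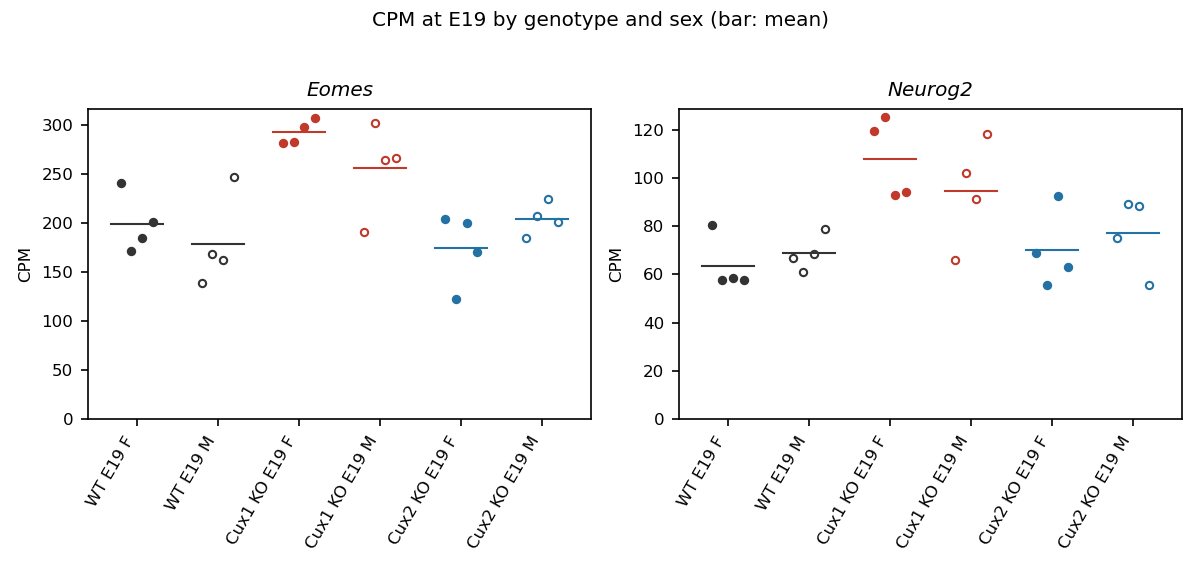
Eomes and Neurog2 in the 24 libraries of E19, in TMM-scaled CPM on a linear axis from 0, by genotype and sex (filled, females; open, males; bars, group means). All 4 Cux1 KO females lie above all WT females in both genes, whereas in males replicate 1 of the Cux1 KO lies among the WT values.

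Loss of CUX2 at E19 gave no called member in either sex. In females 0.0287% of genes were called, and Sox11 and Btg2 had an unadjusted p under 0.05. Sox11 was at 1666, 1465, 1700.2 and 1454 CPM in Cux2 KO and at 1938, 2033, 1826 and 1864 CPM in WT, without overlap, with a log2FC of -0.28 ± 0.08 (adjusted p = 0.65). Btg2 was at 38.7, 45.7, 47.1 and 34.4 CPM against 48.3, 47.8, 51.7 and 50.5 CPM, also without overlap (log2FC -0.26 ± 0.12, adjusted p = 0.977). Over all genes 3.14% did not overlap. In males 0.121% of genes were called, no member had an unadjusted p under 0.05, and the groups overlapped in every member tested. Sox11 had a log2FC of -0.09 ± 0.10 and Btg2 of -0.26 ± 0.18 there. With both sexes fitted together none was called either (0.101% of genes), and the log2FC was -0.19 ± 0.07 for Sox11 (adjusted p = 0.43) and -0.26 ± 0.11 for Btg2 (adjusted p = 0.488), both with an unadjusted p under 0.05. Eomes was at 189 ± 31.2 CPM in Cux2 KO and 189 ± 38.4 CPM in WT (SD, n = 8 each), with a log2FC of -0.01 ± 0.12, and Neurog2 had a log2FC of 0.14 ± 0.11. DESeq2 called no member in any of these fits.

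At P4, where CUX1 was lost through CRE in males only, no member was called by edgeR. Eomes, Neurog2 and Neurod4 had no read in either Cux1 KO library and Insm1 had 1, whereas Neurod2 and Neurod6 were higher on average than in WT males. None of the 19601 genes was called either (0%), with 2 KO libraries against 3. The smallest adjusted p of all genes was 0.0764, 4021 genes and 4 members had an unadjusted p under 0.05, and 41.4% of genes did not overlap between the groups, as did 5 members (Eomes, Insm1, Btg2, Neurog2 and Neurod2). DESeq2 called 3 members among 2273 genes, and edgeR with all P4 groups in 1 fit called 4 among 2597 genes. The median log2FC of all genes was -0.18.

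Insm1 had 0 and 1 read in the Cux1 KO libraries and 1230, 1432 and 354 reads (22.7, 37.2 and 5.54 CPM) in the WT males. Every WT library was above both KO libraries, and the pooled level was 1158-fold lower in KO, with an exact 95% counting interval of 208 to 45747. The edgeR adjusted p was 0.0764 and that of DESeq2 6.17e-08. Neurog2 had no read in either KO library and 358, 54 and 449 reads (6.61, 1.40 and 7.02 CPM) in WT, so that its pooled level was at least 110.2-fold lower, taking 3 counts over the group as the floor. Leaving out each WT male in turn moved that bound between 89.1-fold and 137-fold. The edgeR adjusted p was 0.0899 and that of DESeq2 0.00283. These intervals and bounds cover counting error only.

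Eomes had no read in the KO and 742, 15 and 1 reads in WT, so the difference rests on WT replicate 1. The pooled level was at least 97.0-fold lower in KO with that library and at least 3.13-fold lower without it (edgeR adjusted p = 0.304). DESeq2 gave Eomes a log2FC, shrunk toward 0, of -0.56 and no adjusted p. Neurod4 had no read in the KO and 0, 317 and 555 reads in WT, at least 112-fold lower over the group (68.6-fold without WT replicate 3 and 171-fold without replicate 1) and overlapping with WT replicate 1 (adjusted p = 0.292). With all P4 groups in 1 fit Eomes (adjusted p = 0.0456), Insm1 (5e-04), Neurog2 (0.00182) and Neurod2 (0.00328) were called. Neurod1 was at 0.153 and 7.63 CPM in the KO and at 5.35, 6.08 and 3.16 CPM in WT (log2FC -0.37, adjusted p = 0.922), so its 2 KO libraries enclosed the WT values.

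Neurod2 was at 91.0 and 91.6 CPM in Cux1 KO and at 12.4, 17.6 and 24.2 CPM in WT males. The KO libraries were close to each other and lay above all 12 other P4 libraries, of which the highest was at 35.4 CPM. The log2FC was 2.33 ± 0.32 (edgeR adjusted p = 0.0764, DESeq2 adjusted p = 3.08e-08). Neurod6 was at 97.0 and 195 CPM in the KO and at 17.8, 11.1 and 102 CPM in WT, overlapping through WT replicate 3, with a log2FC of 1.75 ± 1.01 (adjusted p = 0.378). It was 3.33 without WT replicate 3 (adjusted p = 0.111), and 1.19 to 3.33 over all libraries left out in turn. Both genes stayed below their E19 levels, the lowest of which were 441 and 356 CPM. Btg2 was at 72.7 and 110.5 CPM against 211, 157 and 176 CPM (log2FC -1.0 ± 0.25, adjusted p = 0.118). By DESeq2 its log2FC, shrunk toward 0, was -0.97 (adjusted p = 0.00201), which missed only the fold threshold. Sox11 was at 820.0 and 1316 CPM (16084 and 53333 reads) against 1162, 1721 and 1069.5 CPM (log2FC -0.33 ± 0.32, adjusted p = 0.629).

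**Figure D5:**
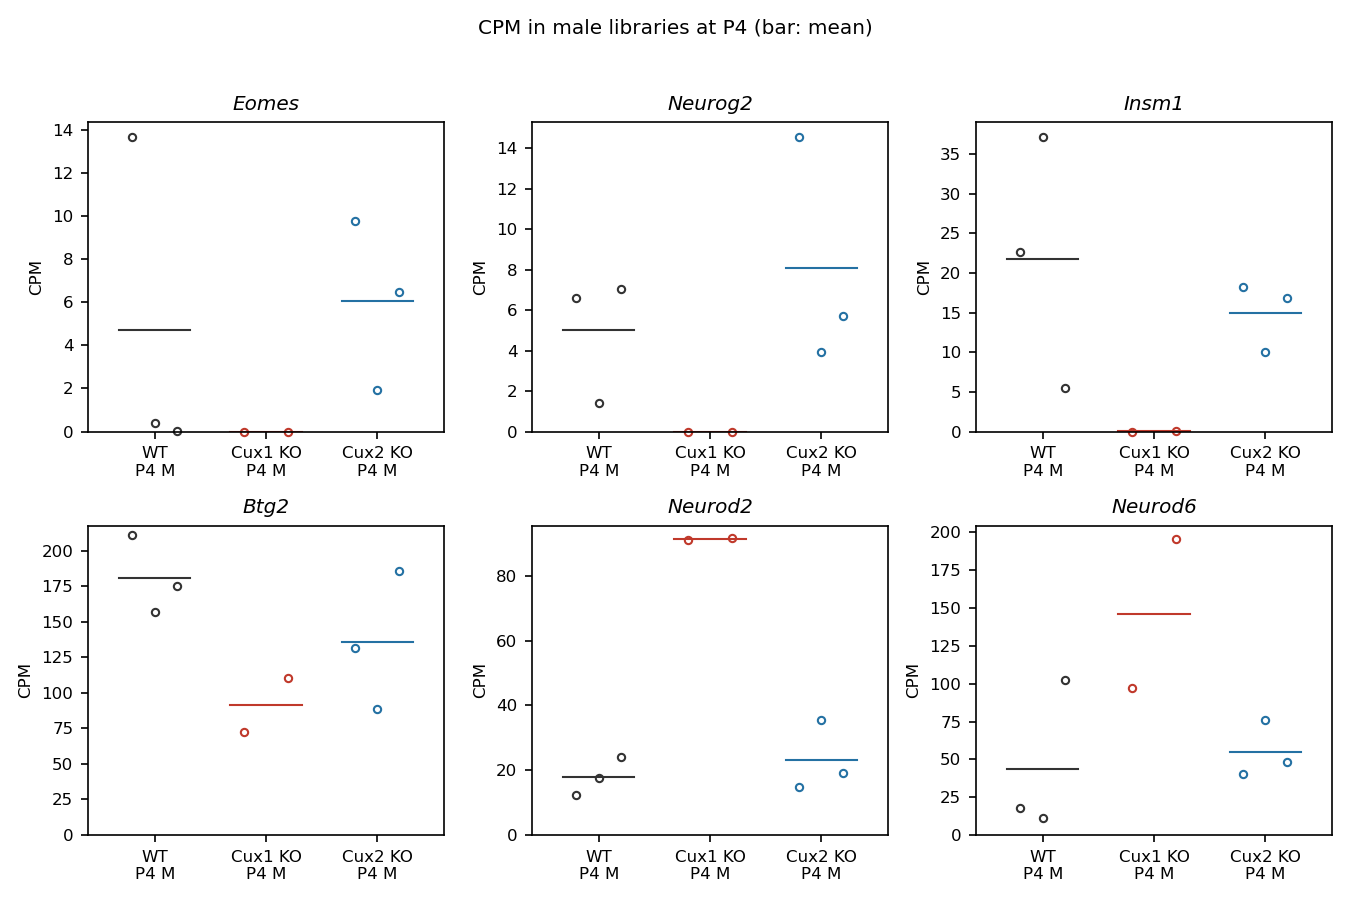
Level of Eomes, Neurog2, Insm1, Btg2, Neurod2 and Neurod6 in the WT (black), Cux1 KO (red) and Cux2 KO (blue) males of P4, in TMM-scaled CPM on linear axes from 0 (points, libraries; bars, group means). Eomes and Neurog2 lie at 0 in both Cux1 KO libraries, and Neurod2 lies at 91.0 and 91.6 CPM, above the WT males at 12.4 to 24.2 CPM.

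Marker genes of other cells also stood at other levels in the same 2 libraries. The summed level of 6 endothelial and mural genes was 0.204 to 89.5 CPM in the Cux1 KO and 327 to 523 CPM in WT males, that of 5 ependymal genes 0.0510 to 0.0987 against 24.7 to 72.1 CPM, and that of 9 interneuron genes 180 to 321 against 379 to 579 CPM. In the KO libraries 1 to 4 of the endothelial and mural and 2 to 4 of the ependymal genes had no read. Oligodendrocyte lineage genes were at 1179.6 to 1258 CPM against 2142 to 3028 CPM and microglia genes at 22.8 to 23.7 CPM against 59.2 to 80.5 CPM. Olfactory and granule neuron genes were at 22.1 to 44.5 CPM against 93.8 to 141 CPM and the relatives of the members at 855 to 1246 CPM against 1583 to 1938 CPM. The radial glia and cell cycle lists overlapped between the groups, at 3825 to 5909 against 3628 to 5188 CPM and at 2453 to 3687 against 3156 to 3711 CPM. Astrocyte genes were at 3686 to 4197 CPM against 3318 to 3695 CPM and upper-layer genes at 1009 to 1149 CPM against 949 to 1010.1 CPM. The summed level of 12 genes of maturing pyramidal neurons was 1622 to 2208 CPM against 507 to 885 CPM, that of 10 immature neuron genes 6489 to 7935 against 3366 to 4339 CPM, and that of 14 proneural targets and Notch ligands 516 to 623 against 984 to 1221 CPM. As edgeR called none of the 19601 genes tested in this comparison, its calls say nothing about these lists. The part of these cells, of the lower number of genes detected and of CRE in the levels of the members was not tested.

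Loss of CUX2 at P4 gave no called member. In females edgeR called none of 19538 genes (0%), and 1443 genes and 3 members had an unadjusted p under 0.05. DESeq2 called 42 genes and no member. Insm1 had a DESeq2 adjusted p of 0.019, and its log2FC, shrunk toward 0 by DESeq2, was -0.999, just inside the fold threshold. Eomes was at 3.48, 3.34 and 3.63 CPM in Cux2 KO and at 5.75, 8.23 and 10.4 CPM in WT females (log2FC -1.21 ± 0.31, adjusted p = 0.552). Insm1 was at 12.3, 13.8 and 10.7 CPM against 17.0, 46.0 and 53.3 CPM (log2FC -1.64 ± 0.42, adjusted p = 0.533). The KO libraries were below the WT ones in both genes, and also in Neurod1 and Btg2. These 4 members did not overlap, against 15.7% of all genes. Neurod1 was at 10.6, 10.0 and 8.81 CPM against 14.2, 14.7 and 13.0 CPM (log2FC -0.49 ± 0.19, adjusted p = 0.663), and Btg2 at 161, 179 and 116 CPM against 189.7, 212 and 185 CPM (log2FC -0.35 ± 0.18, adjusted p = 0.704). Summed levels of marker lists separated the same libraries. In Cux2 KO females the endothelial and mural (401 to 499.9 against 139.6 to 204 CPM), astrocyte (3915 to 4603 against 3035 to 3905 CPM) and maturing pyramidal neuron lists (542 to 997 against 273 to 407 CPM) were higher than in WT females. The cell cycle (2968 to 4205 against 4295 to 5416 CPM) and immature neuron lists (4143 to 4843 against 4855 to 6644 CPM) were lower. Also lower were the proneural targets and Notch ligands (1017 to 1098 against 1291 to 1646 CPM). The relatives of the members were lower too, at 1528 to 2050 against 2167 to 2922 CPM. Their part in the lower levels of the 4 members was not tested.

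In males, where edgeR again called none of 19720 genes (0%; 1136 genes and 1 member at an unadjusted p under 0.05, no member by DESeq2), Neurod1 lay the other way. It was at 12.9, 8.74 and 9.57 CPM in Cux2 KO and at 5.35, 6.08 and 3.16 CPM in WT, without overlap (12.6% of all genes), with a log2FC of 1.13 ± 0.39 (adjusted p = 0.73). Marker lists whose summed levels separated these KO males from the WT males were the astrocyte (3840 to 4917 against 3318 to 3695 CPM), ependymal (126 to 216 against 24.7 to 72.1 CPM) and microglia lists (83.4 to 139 against 59.2 to 80.5 CPM), all higher, and the upper-layer list (758 to 925 against 949 to 1010.1 CPM), which was lower. Their part in the level of Neurod1 was not tested. The test of whether the KO effect differed between the sexes gave a difference of 1.63 ± 0.40 for Neurod1, which was not called by edgeR (adjusted p = 0.629; no gene was called, 1 member had an unadjusted p under 0.05) and was called by DESeq2 (adjusted p = 0.0113, among 273 genes). Eomes, which was even in the KO females, was at 9.79, 1.94 and 6.48 CPM in KO males and 13.7, 0.390 and 0.0156 CPM in WT males (log2FC 0.39 ± 1.81). With both sexes together no member was called (0.0528% of genes). Insm1 was at 13.6 ± 3.30 CPM in Cux2 KO and 30.3 ± 18.3 CPM in WT (SD, n = 6 each), a log2FC of -1.08 ± 0.45 (unadjusted p = 0.035, adjusted p = 0.816), and it was the only member with an unadjusted p under 0.05.

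Between the sexes in WT edgeR called no member at E19, P4 or P7. At E19 0.0461% of genes were called, no member had an unadjusted p under 0.05, and the log2FC of female over male lay between -0.24 (Neurod4) and 0.15 (Eomes). At P4 edgeR called none of 19213 genes (0%; 1398 genes and 2 members at an unadjusted p under 0.05), and DESeq2 called 1 member, Neurod1, among 85 genes. Both members with an unadjusted p under 0.05 were higher in each female than in each male, and 14.9% of all genes did not overlap in 1 direction or the other. Neurod1 was at 13.0 to 14.7 CPM in females and 3.16 to 6.08 CPM in males. Its edgeR log2FC was 1.31 to 1.77 with each library left out in turn (adjusted p 0.434 to 0.981). With all libraries the smallest edgeR adjusted p of the members was 0.565. Sox11 was at 2369 ± 619.7 and 1317 ± 352 CPM (SD, n = 3 each; log2FC 0.89 ± 0.28, adjusted p = 0.675), but the reads behind it were 66821 to 67803 in females and 62938 to 68399 in males, in libraries of different depth. Summed levels of several marker lists also separated these female and male libraries. They were higher in females for the cell cycle (4295 to 5416 against 3156 to 3711 CPM), immature neuron (4855 to 6644 against 3366 to 4339 CPM) and interneuron lists (614 to 1174 against 379 to 579 CPM). Also higher in females were the proneural targets and Notch ligands (1291 to 1646 against 984 to 1221 CPM). The relatives of the members were higher too, at 2167 to 2922 against 1583 to 1938 CPM. In the other direction lay the oligodendrocyte lineage (626 to 1787 against 2142 to 3028 CPM), endothelial and mural (139.6 to 204 against 327 to 523 CPM) and maturing pyramidal neuron lists (273 to 407 against 507 to 885 CPM). Their part in the difference of Neurod1 and Sox11 was not tested. A test of whether the sex difference changed between E19 and P4 called no member by edgeR (0.0747% of genes) and gave 1.43 ± 0.31 for Neurod1 (adjusted p = 0.138). That value was called by DESeq2 (adjusted p = 0.00244, among 436 genes) and, without WT P4 male replicate 2, by edgeR (1.63, adjusted p = 0.0307). Sox11 and Neurod1 were the 2 members with an unadjusted p under 0.05 in it.

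At P7, with 2 females and 3 males, 0.0247% of genes were called and no member was, by edgeR or DESeq2. Neurod4 had no read in either female and was at 3.87, 0.375 and 2.55 CPM in the males, and it was the only member with an unadjusted p under 0.05 (adjusted p = 1). Neurod2 was lower in the females (0.388 and 6.20 CPM) than in the males (6.26, 10.7 and 6.29 CPM), with a log2FC of -1.20 ± 1.00 that was within the spread (adjusted p = 1). Neurod2 and Neurod4 were the 2 members whose groups did not overlap, against 18.4% of all genes.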

How the data were processed

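RNA-seq of 300 pg of RNA per library gave 60-nucleotide single-end reads in 43 libraries. According to the methods, the authors aligned them with hisat2 to GRCm39 (the Y chromosome masked for females and its pseudoautosomal regions for males), removed duplicated reads with Rsubread (threshold 50) and assigned primary alignments to Ensembl annotation using featureCounts. The deposited values are whole-number counts per gene, not normalized, without UMIs. Versions of the aligner and the counter and the strand setting are not given in the sources used here. No column was left unused.

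Counts were analysed in R 4.3.3 with edgeR 4.0.16 (filterByExpr, TMM, glmQLFit and glmQLFTest, Benjamini-Hochberg adjustment over all genes tested), with the 2 groups compared alone and, for stages, sex as a covariate. A gene was called at an adjusted p under 0.05 and an absolute log2FC over 0.5 at E19 or over 1 otherwise. Tests of a difference between effects had no fold threshold. CPM used TMM factors over all 43 libraries, and correlations used log2 CPM with a prior count of 2. Floors were 3 counts over the group. Totals were 13321095 to 60559585 counts. Alternatives were DESeq2 1.42.0, DESeq2 size factors or library totals in edgeR, no filter, no fold threshold, a replicate block, all groups of a stage in 1 fit, each sex alone or both together, and each library left out. The fits were tested on simulated counts. DESeq2 fold changes between 2 groups were shrunk toward 0 before the fold threshold was applied, unlike those for stages and for differences between effects.

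The members and 17 gene lists were chosen with earlier results of these data known. The genes named are the 10 members, Cux1 and Cux2, the 3 called genes of largest change per direction of a pathway list (Btg1 and Btg3 among them) and the 5 genes most like Eomes at E19 and Neurod1 at P4. Positions and upstream windows came from GENCODE vM39 and the GRCm39 sequence, in which 56236 of 56980 identifiers were found. Protein sequences were not used here.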

Additional observations from a re-analysis of the deposited data

Results flagged for a closer look

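In the groups of 4 libraries, the gap between an extreme library and its neighbour was compared with the group's range for each member, and 2 of 54 gene and group combinations passed Dixon's 95% critical value, where chance alone passes about 1 in 20. Neurog2 in WT E19 female replicate 1 was at 80.3 CPM, with the other 3 libraries at 57.6 to 58.6 CPM. Neurod6 in Cux1 KO E19 female replicate 3 was at 541 CPM, with the other 3 at 606 to 620.0 CPM. Without WT E19 female replicate 1 both Eomes and Neurog2 were called higher in Cux1 KO females. That library was the highest WT female in both genes, so leaving it out could only widen the difference in means.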

How the results depend on the processing

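Members called changed as follows. DESeq2 called 1 between the sexes in WT at P4, 1 in Cux1 KO females at E19, 3 in Cux1 KO males at P4, 3 between P4 and P7, 1 in the sex difference of the Cux2 KO effect at P4 and 1 in the change of the WT sex difference from E19 to P4, all against 0. In Cux1 KO females at E19, 2 were called without the filter on low counts and 1 with the replicate block, and with both sexes together 2 were called in place of 0 in either sex. All P4 groups in 1 fit called 4 in Cux1 KO males. Library totals called 1 between P4 and P7. With each library left out, the range was 0 to 2 in Cux1 KO females at E19 (2 without WT female replicate 1), 0 to 2 in both sexes together, 0 to 1 between P4 and P7, 0 to 1 for the stage dependence of the Cux2 KO effect (1 without WT P4 male replicate 3) and 0 to 2 for the stage dependence of the WT sex difference (1, 2 and 1 without WT P4 male replicate 1, 2 and 3). It stayed at 7 between E19 and P4 in WT and in Cux2 KO. DESeq2 gave 5 there in WT, because Eomes (log2FC -4.96) and Neurod6 (-3.77) had no adjusted p, and 8 in Cux2 KO. The cause of these changes was not tested.

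The values of 4 members changed sign under an alternative, none of them called. Sox11 between E19 and P4 in WT (-0.06) was 0.10 with library totals, 0.30 in females alone and -0.19 to 0.054 with libraries left out, and in Cux2 KO (-0.09) it was 0.058 with library totals and -0.21 to 0.028. Library totals moved the median of all genes from 0.03 to 0.19 in WT and from 0.05 to 0.21 in Cux2 KO. Neurod4 between E19 and P4 in Cux2 KO (-1.23) was 0.36 in females alone. Neurod1 in Cux2 KO females at P4 (-0.49) was 0.32 with both sexes together. Eomes in Cux2 KO at E19 with both sexes (-0.01) was 0.0072 with library totals and -0.075 to 0.069 with libraries left out, and its sex difference of the Cux1 KO effect (-0.05) was -0.16 to 0.15. Of the other values compared, 884 kept direction and side of the threshold, 14 lost the threshold and 27 passed it.

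Replicate numbers did not pair the libraries: the mean correlation of same-numbered deviations was -0.08 to 0.23 over the 10 comparisons, and each pair exceeded 0.1 only between the sexes at P7, with 2 pairs. The replicate block changed the members called in Cux1 KO females at E19 only, to 1 (Neurog2, 0.76, adjusted p = 0.0464). Over all genes, the calls ranged over the alternatives from 2 to 63 (10 in the analysis as reported) in Cux1 KO females and 0 to 91 (17) in Cux1 KO males and 19 to 134 (43) with both sexes of Cux1 KO at E19, 0 to 2597 (0) in Cux1 KO males at P4, 3 to 46 (5) and 9 to 66 (21) in Cux2 KO females and males at E19, 0 to 42 (0) and 0 to 75 (0) at P4, 0 to 1333 (480) between P4 and P7, 0 to 85 (0) between the WT sexes at P4, 7715 to 12880 (8609) between E19 and P4 in WT and 8013 to 13925 (9148) in Cux2 KO. Depth limits Neurog1, which had at most 12 reads per library at E19.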

Other observations

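The genes whose deviations from the group means over the 24 libraries of E19 were most like those of Eomes, among 16280 genes, were Trim26 and Tfap2c (r = 0.79 each), F2r and Celsr1 (0.77 each) and Col22a1 (0.75). Tfap2c encodes a transcription factor known from basal progenitors and Celsr1 a cadherin of planar polarity. Without the Cux1 KO libraries (16 left) these values were 0.82 for Trim26, 0.89 for Tfap2c, 0.75 for F2r, 0.71 for Celsr1 and 0.76 for Col22a1. Neurog2 had an r of 0.61 with Eomes and ranked 57. Among the members, Neurod2 and Neurod6 varied most alike at E19 (r = 0.86), and Btg2 had an r of 0.62 with Neurog2 and of -0.63 with Neurod2. These are descriptions over libraries that share sequencing depth and the composition of each sort.

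Over the 14 libraries of P4, the genes most like Neurod1 among 16989 were Gm12418, Sfswap, Rgs3, Chaf1a and Tpcn1, each with an r of 0.99. These values rested on the 2 Cux1 KO libraries, in which Neurod1 was at 0.153 and 7.63 CPM: over the other 12 libraries, a choice made after seeing the data, they were 0.80, 0.78, 0.77, 0.73 and 0.71.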
